A study of Mus musculus with 10 samples.

Results

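The subject here is a set of 30 genes of the blood and lymphatic endothelium in mouse skin, out of 55487 genes in the deposited tables. The genes were chosen by symbol, with earlier results of these data known. They comprise 22 genes expressed by blood vessel endothelium in general, called pan-endothelial here, 3 genes of lymphatic endothelium (Lyve1, Prox1, Flt4) and 5 genes of endothelial activation, which are adhesion or chemokine-binding proteins of the vessel wall (Sele, Selp, Icam1, Vcam1, Ackr1). Whole skin was profiled by RNA-seq, with 1 library per mouse, from 5 mice whose genotype is given as Hamp1-KI ker (KI) and 5 wild-type mice (WT). The title of the series concerns overexpression of hepcidin in the skin. Hepcidin is the peptide hormone, encoded by Hamp, that controls iron export from cells. The labels do not spell out "ker", and they state no age, sex, strain or promoter for the knock-in allele. All 10 samples are labelled as skin with no further treatment. Titles carry 1 of 2 prefixes, EAS37 (2 KI and 3 WT libraries) or EAS42 (3 KI and 2 WT libraries), whose meaning the labels do not give.

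Endothelial cells line all vessels of the dermis. They are held together by VE-cadherin (Cdh5), PECAM-1 and claudin-5, and they depend on signals from VEGF and angiopoietin receptors and on ETS and SOX transcription factors. Lymphatic endothelium is set apart by the factor PROX1, the hyaluronan receptor LYVE1 and the VEGF-C receptor encoded by Flt4. Under inflammatory signals the endothelium can display selectins, ICAM-1 and VCAM-1, which leukocytes grip as they leave the blood. ICAM-1 is also made by leukocytes and, when stimulated, by keratinocytes.

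Libraries held between 18.96 and 26.43 M expected counts. Hamp ranged from 85.59 to 168.95 CPM (counts scaled to library size) in KI libraries, against 1.86 to 3.33 CPM in WT libraries. All 30 endothelial genes passed the filter on low counts, among 17321 genes tested. Below, a gene is said to have risen or fallen when its adjusted p was under 0.05 in edgeR's quasi-likelihood test with Benjamini-Hochberg adjustment over all genes tested, shortened to edgeR adjusted p. Of all genes tested, 15.3% fell and 15.6% rose, and the median log2 fold change was -0.01. Libraries of 1 group differed from each other by more than sampling noise in every pair.

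Promoters of 4 of the genes are printed here because they belong to both sides of the pattern described below. Icam1 rose, Robo4 and Tie1 fell, and Sele, an activation gene like Icam1, did neither. The sequences are those of RefSeq starts on GRCm38.p6, and the promoter set used here held windows for 17 of the 30 genes. Each window runs 5′ to 3′ on the gene's strand from 250 bases before to 50 bases after the annotated start. In Icam1 and Sele capitals mark matches to the letters GGNNTTNCC, a simplified form of the NF-kappa-B site. In Robo4 and Tie1 they mark matches to CNGGAAG, a simplified ETS site. Both strands were searched. The Icam1 window is chr9:21015690-21015989 on the plus strand, the Sele window chr1:164047984-164048283 on the plus strand, the Robo4 window chr9:37401722-37402021 on the plus strand and the Tie1 window chr4:118489800-118490099 on the minus strand.
Icam1: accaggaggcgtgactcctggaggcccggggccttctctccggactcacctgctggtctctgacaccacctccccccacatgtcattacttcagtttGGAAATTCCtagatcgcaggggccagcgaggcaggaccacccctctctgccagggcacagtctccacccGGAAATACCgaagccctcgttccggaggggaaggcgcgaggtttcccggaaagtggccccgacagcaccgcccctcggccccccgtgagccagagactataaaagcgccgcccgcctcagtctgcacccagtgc
Sele: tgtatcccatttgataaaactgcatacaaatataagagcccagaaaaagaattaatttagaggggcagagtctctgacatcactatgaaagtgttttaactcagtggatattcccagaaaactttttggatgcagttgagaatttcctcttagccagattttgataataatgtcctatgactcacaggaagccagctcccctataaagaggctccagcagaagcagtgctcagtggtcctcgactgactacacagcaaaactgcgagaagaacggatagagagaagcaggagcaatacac
Robo4: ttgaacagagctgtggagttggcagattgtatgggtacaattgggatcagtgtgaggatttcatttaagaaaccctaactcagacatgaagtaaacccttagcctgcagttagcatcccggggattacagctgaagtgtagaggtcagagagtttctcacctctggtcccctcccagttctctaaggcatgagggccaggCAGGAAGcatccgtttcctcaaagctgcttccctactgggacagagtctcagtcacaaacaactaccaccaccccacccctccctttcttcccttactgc
Tie1: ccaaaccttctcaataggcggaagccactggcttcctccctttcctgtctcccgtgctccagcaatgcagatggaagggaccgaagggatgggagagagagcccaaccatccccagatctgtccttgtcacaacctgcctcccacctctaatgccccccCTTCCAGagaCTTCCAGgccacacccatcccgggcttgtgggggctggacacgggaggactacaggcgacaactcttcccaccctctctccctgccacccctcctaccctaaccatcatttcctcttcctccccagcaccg
The Icam1 window held 2 NF-kappa-B-like matches, GGAAATTCC starting 153 bases and GGAAATACC starting 84 bases before the start. The Sele window held none of these letters and 1 ETS-like match, and the windows of Selp and Ackr1, activation genes that did not pass the test, each held 1 NF-kappa-B-like match. Only the simplified form was searched, so other forms of the NF-kappa-B site in the Sele window would have been missed. The Robo4 window held 1 ETS-like match, CAGGAAG, 50 bases before the start, and the Tie1 window held 2 copies of CTTCCAG, the same motif read from the other strand. The windows of Eng, Tek, Kdr and Aqp1, which fell, held no ETS-like match. Of the 22 windows of the 17 genes (some genes have several starts), 12 held the ETS letters and 6 the NF-kappa-B letters. The ETS letters were in 7 of 15 pan-endothelial windows, 3 of 3 lymphatic windows (Prox1 and Flt4) and 2 of 4 activation windows. The NF-kappa-B letters were in 2 of 15 pan-endothelial, 1 of 3 lymphatic and 3 of 4 activation windows. Among 32851 mouse promoter windows of the same length, 31.9% held the ETS letters and 16.0% the NF-kappa-B letters. The third set of letters, ACAATG for SOX factors, was in 1 of the 22 windows, a window of Erg, against 12.6% of all windows. These matches describe letters only.

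Pan-endothelial genes were lower in KI skin. Of the 22, 18 fell and none rose. The median log2 fold change of the 22 was -0.67, and all 22 values were below 0. For comparison, 15.3% of all genes tested fell. Because the genes were chosen with earlier results of these data known, shares of all genes are given as description and not as a test. In 14 of the 22, every KI library lay below every WT library, which held for 9.65% of all genes tested. Log2 fold changes of the 18 ran from -1.03 (Cdh5) to -0.48 (Sox18). No lymphatic gene passed the test, and of the activation genes only Icam1 did, in the opposite direction. Whole skin was measured, and CPM is scaled to library size. Fewer endothelial cells, less RNA per endothelial cell and a larger share of RNA from other cells therefore cannot be told apart.

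**Figure D1:**
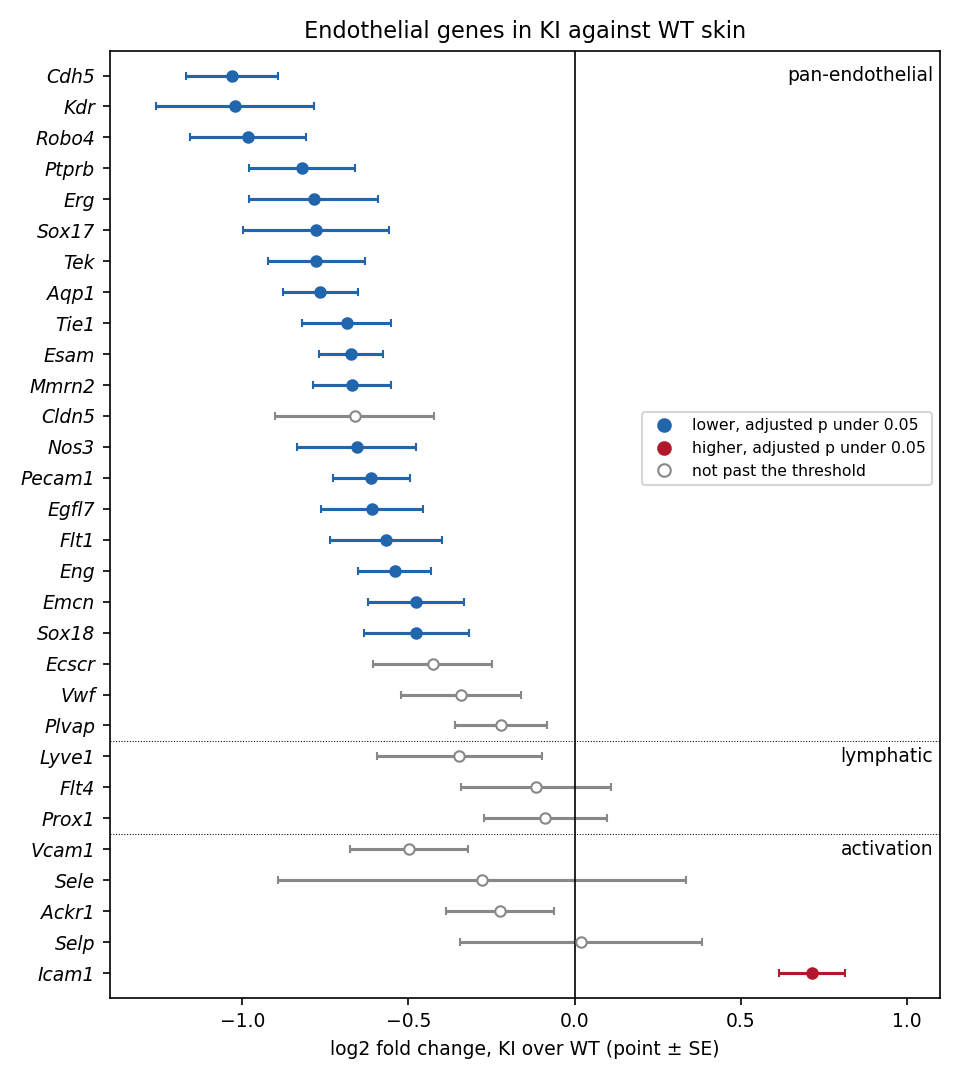
Log2 fold change of KI over WT for the 30 endothelial genes (x axis, point ± SE, 5 libraries each), grouped as pan-endothelial, lymphatic and activation genes (y axis). All 22 pan-endothelial points lie left of 0 and 18 are filled as lower, no lymphatic gene is filled, and Icam1 alone is filled as higher at 0.72.

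Of the 4 junction genes in the set Pecam1, Cdh5 and Esam fell, and Cldn5 did not pass the test. Pecam1 (chromosome 11, 106654217 to 106750628, minus strand, GRCm38) encodes an adhesion molecule at endothelial cell contacts. Its values were 43.0, 53.1, 56.3, 45.5 and 50.7 CPM in KI 1 to KI 5, against 58.4, 84.9, 81.0, 84.2 and 71.4 CPM in WT 1 to WT 5. The groups did not overlap, and WT 1 was the WT library nearest to KI. This is a log2 fold change of -0.61 ± 0.12 (SE), with an edgeR adjusted p of 0.00403.

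Cdh5 (chromosome 8, 104101625 to 104144511, plus strand), which encodes the adherens junction protein VE-cadherin, had the largest fall of the set. It measured 23.1, 23.2, 29.8, 20.3 and 24.5 CPM in KI 1 to KI 5, against 39.7, 54.5, 55.4, 57.6 and 40 CPM in WT 1 to WT 5. Every KI library lay well below every WT library. Cdh5 averaged 24.2 ± 3.50 CPM in KI and 49.4 ± 8.84 CPM in WT (SD, n = 5 each), a log2 fold change of -1.03 ± 0.14 (SE) with an edgeR adjusted p of 0.000825. Esam, another junctional adhesion molecule, averaged 19.6 ± 1.77 CPM in KI and 31.3 ± 3.39 CPM in WT (SD, n = 5 each), without overlap.

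Cldn5 encodes the tight junction protein claudin-5. It had 7.17, 10.2, 11.5, 12.8 and 18.6 CPM in KI 1 to KI 5, against 19.8, 18.5, 21.0, 23.5 and 12.5 CPM in WT 1 to WT 5. KI 5 reached the WT range and WT 5 fell into the KI range. The log2 fold change was -0.66 ± 0.24 (SE), close to that of Esam but with a wider error (edgeR adjusted p = 0.0567). Without KI 5 the edgeR adjusted p was 0.0118 and without WT 5 it was 0.0335, and without any of the other 8 libraries it was 0.0786 to 0.119. With the title prefix as a block it was 0.0348.

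The VEGF receptor genes Kdr and Flt1 and the angiopoietin receptor genes Tek and Tie1 fell as well, while the VEGF-C receptor gene Flt4, given below, did not pass. Kdr encodes VEGFR2, the main signalling receptor for VEGF-A. Its values were 7.82, 8.95, 14.1, 10.1 and 12 CPM in KI 1 to KI 5, against 15.6, 15.9, 28.0, 30.9 and 17.1 CPM in WT 1 to WT 5. The WT libraries split into 2 high values, WT 3 and WT 4, and 3 values just above the highest KI library. Kdr fell by 1.02 ± 0.24 (SE) on the log2 scale, with an edgeR adjusted p of 0.0101. Flt1, which encodes the VEGF decoy and receptor VEGFR1, averaged 19.4 ± 5.29 CPM in KI and 28.8 ± 3.02 CPM in WT (SD, n = 5 each) and also fell, but KI 3 at 27.2 CPM overlapped the WT range. Without KI 1, KI 2, KI 4, WT 2 or WT 4 the edgeR adjusted p of Flt1 was 0.0518 to 0.0639.

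Tek encodes TIE2, the angiopoietin receptor. It measured 14.2, 13.8, 16.4, 14.1 and 13 CPM in KI 1 to KI 5, against 24.5, 22.6, 34.5, 20.7 and 20.1 CPM in WT 1 to WT 5. The KI libraries were close together and all below WT. Its log2 fold change was -0.78 ± 0.15 (SE), with an edgeR adjusted p of 0.00413. The related receptor gene Tie1 averaged 14.8 ± 2.04 CPM in KI and 23.9 ± 3.97 CPM in WT (SD, n = 5 each), again without overlap.

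Ptprb, which encodes the phosphatase VE-PTP that acts on TIE2 and VE-cadherin, had 22.9, 28.3, 40.6, 27.0 and 28.6 CPM in KI 1 to KI 5, against 40.9, 66.3, 50.4, 51.0 and 51.9 CPM in WT 1 to WT 5. The groups touched without crossing, since KI 3 lay just under WT 1. Its log2 fold change was -0.82 ± 0.16 (SE), with an edgeR adjusted p of 0.00469. Eng, which encodes the TGF-beta family co-receptor endoglin, had 20.7, 28.3, 29.8, 26.6 and 27.8 CPM in KI 1 to KI 5, against 34.7, 39.8, 42.9, 42.6 and 33.9 CPM in WT 1 to WT 5. All KI values were below all WT values, with a log2 fold change of -0.54 ± 0.11 (SE) and an edgeR adjusted p of 0.00578.

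Robo4, an endothelial guidance receptor linked to vessel stability and the gene whose promoter is printed above, fell by 0.98 ± 0.18 (SE) on the log2 scale. It measured 6.91, 6.81, 11.2, 8.68 and 12.5 CPM in KI 1 to KI 5, against 16.6, 19.2, 16.3, 19.8 and 19.2 CPM in WT 1 to WT 5. The 2 lowest values were the EAS37 KI libraries, and the WT libraries were tightly grouped. The edgeR adjusted p was 0.00319.

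Among the pan-endothelial genes, the transcription factor genes Erg, Sox17 and Sox18 fell. In the list of other endothelial genes given below, the factor genes Klf2 and Lmo2 fell too, while Fli1, Ets1, Tal1, Gata2 and Klf4 did not pass. Erg, an ETS factor that maintains endothelial identity, had 4.04, 4.57, 7.41, 5.38 and 5.78 CPM in KI 1 to KI 5, against 8.08, 11.4, 9.73, 10.8 and 6.88 CPM in WT 1 to WT 5. The highest KI library, KI 3, stood above WT 5, and the other KI libraries stood below all WT libraries. Erg fell by 0.79 ± 0.20 (SE) on the log2 scale, with an edgeR adjusted p of 0.0130.

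Sox17, a SOX factor of arterial endothelium, had 6.26, 7.09, 8.76, 5.38 and 11.4 CPM in KI 1 to KI 5, against 14.4, 18.3, 11.9, 10.1 and 12 CPM in WT 1 to WT 5. The groups overlapped through KI 5 and WT 4. The log2 fold change was -0.78 ± 0.22 (SE), with an edgeR adjusted p of 0.0226, and it missed the threshold without KI 1, KI 2 or KI 4 (0.0513 to 0.0555). Its relative Sox18 averaged 9.13 ± 2.14 CPM in KI and 12.7 ± 0.638 CPM in WT (SD, n = 5 each), with no overlap. Sox18 was the weakest of the 18 calls (edgeR adjusted p = 0.0413), and it was past the threshold again only when KI 2, KI 4 or KI 5 was the library left out. The remaining SOX factor of this subgroup, Sox7, rose: it averaged 47.6 ± 11.2 CPM in KI and 16.4 ± 2.30 CPM in WT (SD, n = 5 each), a log2 fold change of 1.54 ± 0.18 (SE) with an edgeR adjusted p of 0.000429.

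Aqp1, which encodes a water channel found in endothelium and red cells, had the highest level per length among the 30 genes in both groups, at 55.0 ± 8.53 TPM (abundance scaled for transcript length) in KI and 98.5 ± 13.9 TPM in WT (SD, n = 5 each). Its counts gave 95.3, 102, 115, 90.7 and 117 CPM in KI 1 to KI 5, against 152, 217, 185, 177 and 153 CPM in WT 1 to WT 5. The groups were far apart. Aqp1 fell by 0.77 ± 0.11 (SE) on the log2 scale, with an edgeR adjusted p of 0.00137. Of 5 red cell genes 0 passed edgeR's test, DESeq2's or limma-voom's, and 0 had an unadjusted p under 0.05 in edgeR. All 5 log2 fold changes were below 0 (median -0.27), with SEs of 0.25 (Alas2) to 0.42 (Hba-a1). Their summed level overlapped between groups, at 318 to 857 CPM in KI and 365 to 1116 CPM in WT. The part of red cells in the fall of Aqp1 was not tested.

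The other genes that fell were Emcn (endomucin, a surface sialomucin), Egfl7 (a secreted endothelial matrix factor), Mmrn2 (an endothelial matrix protein) and Nos3 (endothelial nitric oxide synthase). Their log2 fold changes were -0.48 ± 0.14 for Emcn, -0.61 ± 0.15 for Egfl7, -0.67 ± 0.12 for Mmrn2 and -0.66 ± 0.18 for Nos3 (SE). The groups overlapped for Nos3 and were apart for the other 3. Emcn missed the threshold without KI 1, KI 2, KI 4, WT 3 or WT 4 (edgeR adjusted p 0.0617 to 0.0689), and Nos3 without KI 4 (0.0511). Nos3 shares its 3′ end with Atg9b on the opposite strand, which had 53160 counts over the 10 libraries against 1920 for Nos3. Eng overlaps Fpgs, Egfl7 overlaps Agpat2 and Plvap overlaps Gtpbp3 in the same way. The strand setting of the counting is not given in the sources used here, so these 4 values are uncertain to that extent.

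**Figure D2:**
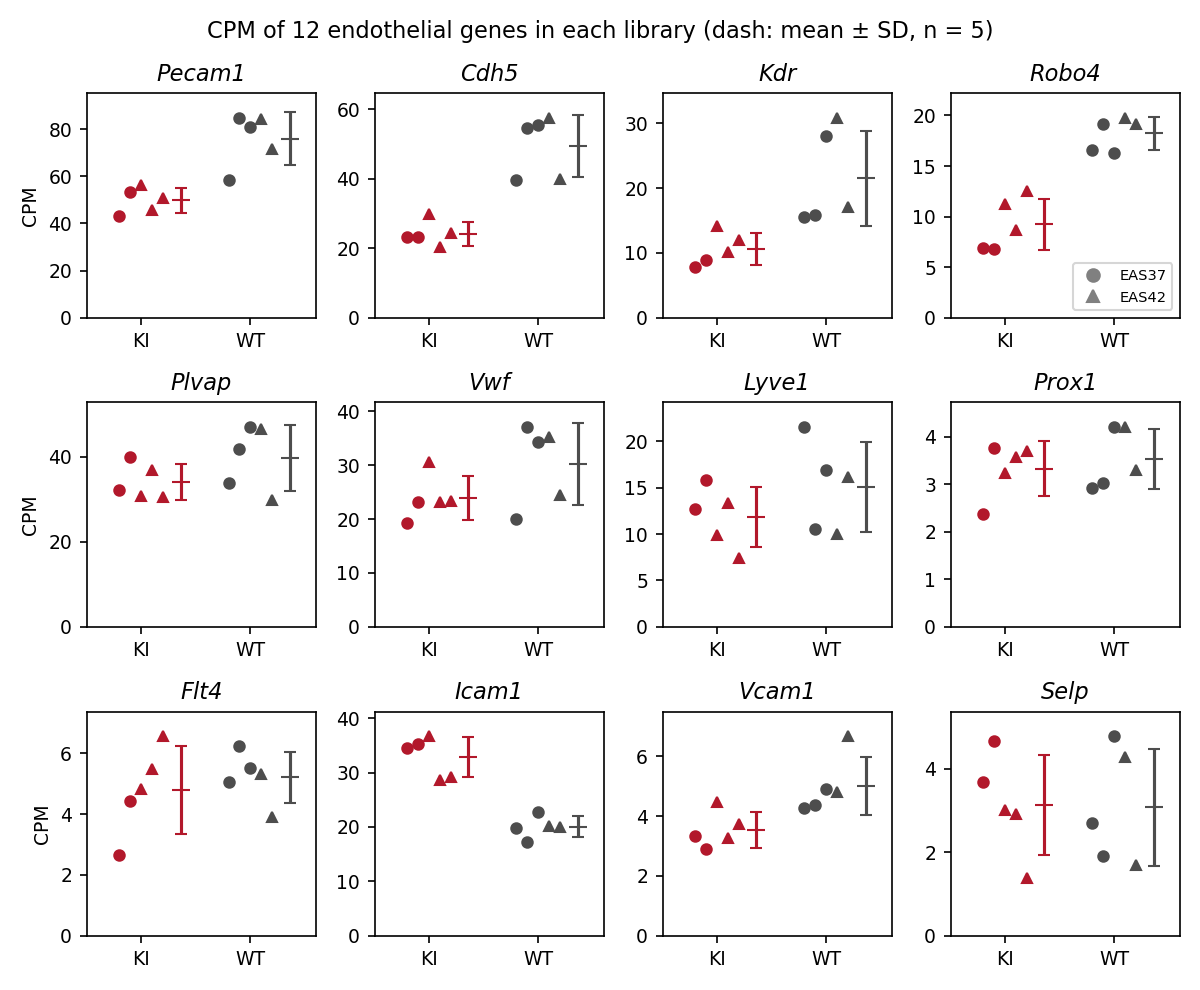
CPM (y axis, from 0) of 12 endothelial genes in each of the 5 KI and 5 WT libraries (x axis), with the mean ± SD beside the points and the title prefix as the point shape. Pecam1, Cdh5, Kdr and Robo4 separate with KI below WT, Icam1 separates with KI above WT, and the other 7 genes overlap.

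Besides Cldn5, 3 pan-endothelial genes did not pass the test. Plvap, which encodes the diaphragm protein of fenestrated capillaries and venules, had 32.2, 40.0, 30.8, 36.9 and 30.5 CPM in KI 1 to KI 5, against 33.7, 41.7, 47.1, 46.6 and 29.8 CPM in WT 1 to WT 5. The WT range covered the whole KI range. Its log2 fold change of -0.22 ± 0.14 (SE) was the smallest of the 22 (edgeR adjusted p = 0.240). Ecscr, which encodes an endothelial surface regulator of migration, had 5.50, 5.62, 7.98, 6.73 and 7.70 CPM in KI 1 to KI 5, against 7.37, 7.46, 8.79, 12.6 and 8.80 CPM in WT 1 to WT 5. KI 3 and KI 5 overlapped the WT range, and the log2 fold change was -0.43 ± 0.18 (SE) with an edgeR adjusted p of 0.0917, or 0.0125 with the title prefix as a block.

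Vwf encodes von Willebrand factor, the platelet-binding protein that endothelium stores and secretes. It had 19.3, 23.1, 30.6, 23.1 and 23.3 CPM in KI 1 to KI 5, against 20, 37.2, 34.3, 35.3 and 24.5 CPM in WT 1 to WT 5. WT 1 and WT 5 sat within the KI range, and the log2 fold change was -0.34 ± 0.18 (SE) with an edgeR adjusted p of 0.170. On the per-length scale the difference was gone: Vwf averaged 18.1 ± 4.86 TPM in KI and 18.1 ± 2.52 TPM in WT (SD, n = 5 each). The transcript length assigned to Vwf, which the authors' tables weight by isoform abundance, was 1376 to 2423 bases in KI and 1785 to 2954 bases in WT. That length difference did not pass limma's test (log2 difference -0.35, 95% interval -0.76 to 0.07, adjusted p = 0.645). With the deposited effective lengths as offsets the log2 fold change of Vwf was 0.06 (edgeR adjusted p = 0.801). Weighted lengths could be tested for 22 of the 30 genes and none differed, nor did any have an unadjusted p under 0.05 in limma, where 0.00738% of 13551 genes were called.

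Of the 3 lymphatic genes 0 passed edgeR's test, 0 had an unadjusted p under 0.05, and DESeq2 and limma-voom also called 0. Lyve1 had 12.7, 15.8, 9.94, 13.3 and 7.45 CPM in KI 1 to KI 5, against 21.6, 10.5, 16.9, 10 and 16.2 CPM in WT 1 to WT 5. The spread within each group was wide, and the log2 fold change was -0.35 ± 0.25 (SE) with an edgeR adjusted p of 0.307. Macrophages of the skin also express Lyve1; of 10 macrophage genes 0 passed edgeR's test (1 with DESeq2, 0 with limma-voom, 1 at an unadjusted p under 0.05), and their summed level was 256 to 466 CPM in KI and 213 to 408 CPM in WT.

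Prox1, the factor that specifies lymphatic fate, had 2.37, 3.76, 3.23, 3.56 and 3.70 CPM in KI 1 to KI 5, against 2.91, 3.02, 4.20, 4.21 and 3.30 CPM in WT 1 to WT 5. Except for KI 1, which was lowest, KI values lay inside the WT range. The log2 fold change was -0.09 ± 0.19 (SE), with an edgeR adjusted p of 0.744. Flt4, the VEGF-C receptor gene, had 2.67, 4.43, 4.84, 5.50 and 6.59 CPM in KI 1 to KI 5, against 5.07, 6.24, 5.52, 5.31 and 3.90 CPM in WT 1 to WT 5. KI 1 was the lowest and KI 5 the highest of all 10 libraries. The log2 fold change was -0.12 ± 0.23 (SE), with an edgeR adjusted p of 0.724. At 47 to 142 counts per library, Prox1 and Flt4 rested on few reads, and a modest change in them may not have been detectable.

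Of 7 other lymphatic genes listed 1 rose and 2 fell, where 15.6% of all genes tested rose and 15.3% fell. Pdpn (podoplanin, also made by keratinocytes and fibroblasts) rose with a log2 fold change of 0.83 ± 0.16 (SE). Itga9 (a matrix receptor subunit of lymphatic valves) and Reln (a secreted glycoprotein) fell with log2 fold changes of -1.04 ± 0.22 and -1.07 ± 0.35 (SE). The other 4 did not pass.

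Among activation genes Icam1 rose. Icam1 (chromosome 9, 21015985 to 21028817, plus strand) encodes the ligand of leukocyte beta-2 integrins. It had 34.5, 35.3, 36.8, 28.6 and 29.2 CPM in KI 1 to KI 5, against 19.8, 17.3, 22.7, 20.2 and 20 CPM in WT 1 to WT 5. Every KI library exceeded every WT library, as held for 10.7% of all genes tested, and 15.6% of all genes tested rose. Icam1 averaged 32.9 ± 3.71 CPM in KI and 20.01 ± 1.92 CPM in WT (SD, n = 5 each), a log2 fold change of 0.72 ± 0.10 (SE) with an edgeR adjusted p of 0.000994.

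The 2 selectins differed by less than their spread. Sele, which encodes E-selectin, had 0.606, 1.48, 0.567, 1.1 and 0.507 CPM in KI 1 to KI 5, against 0.750, 0.159, 2.72, 1.1 and 0.413 CPM in WT 1 to WT 5. These are 10 to 31 counts in KI libraries and 3 to 70 in WT libraries, too few to show any but a large change (log2 fold change -0.28 ± 0.62 SE, edgeR adjusted p = 0.757). Selp, which encodes P-selectin of endothelium and platelets, had 3.68, 4.66, 3.01, 2.92 and 1.37 CPM in KI 1 to KI 5, against 2.69, 1.91, 4.79, 4.28 and 1.70 CPM in WT 1 to WT 5. The ranges nearly coincided (log2 fold change 0.02 ± 0.36 SE, edgeR adjusted p = 0.972). At 27 to 123 counts per library, a modest change in Selp may not have been detectable. Of 4 platelet genes tested 0 passed with edgeR, DESeq2 or limma-voom, and 2 had an unadjusted p under 0.05 in edgeR.

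Vcam1, which encodes the ligand of the integrin VLA-4, had 3.33, 2.90, 4.49, 3.26 and 3.75 CPM in KI 1 to KI 5, against 4.28, 4.39, 4.90, 4.81 and 6.70 CPM in WT 1 to WT 5. Only KI 3 entered the WT range. The log2 fold change was -0.50 ± 0.18 (SE), just short of the threshold (edgeR adjusted p = 0.0525), and the edgeR adjusted p was 0.0187 with the title prefix as a block. It was 0.0309 without KI 3 and 0.0544 to 0.127 without any of the other 9 libraries. Ackr1, the atypical chemokine receptor of venules, had 7.97, 8.52, 8.33, 9.57 and 11.6 CPM in KI 1 to KI 5, against 9.27, 8.78, 14.6, 10.8 and 10.2 CPM in WT 1 to WT 5. The groups overlapped (log2 fold change -0.22 ± 0.16 SE, edgeR adjusted p = 0.311). Ackr1 overlaps Cadm3 on the same strand, so reads in the shared stretch could have been assigned to either.

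To set each gene against the rest of the endothelium in the same library, its log2 CPM was also taken relative to the pan-endothelial level, the mean log2 CPM of the 22 genes (of the other 21 for a pan-endothelial gene). That level was 3.71 to 4.19 in KI libraries and 4.44 to 4.79 in WT libraries, a mean difference of -0.66. A gene that did not change therefore stands 0.66 higher in KI on this scale, and 47.1% of all genes tested were higher in every KI library than in every WT library, against 0.497% that were lower. Relative to that level, Icam1 stood at 0.75 to 1.41 in KI and at -0.62 to -0.11 in WT, a difference of 1.37. The differences of the other activation genes and of the lymphatic genes were 0.17 (Vcam1) to 0.78 (Sele), against 0.66 for an unchanged gene. Relative Cdh5 was 0.44 to 0.87 in KI and 0.91 to 1.11 in WT, lower in every KI library. Whether lymphatic and pan-endothelial genes differed in their response was not tested.

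All 5 KI libraries had low pan-endothelial values. Of the 22 genes, KI 1 had 21 below the lowest WT library, KI 2 had 20, KI 3 had 16, KI 4 had 19 and KI 5 had 17. These counts are description only, since the share of all genes below the lowest WT library was not computed for single libraries. Every KI library lay below every WT library for 9.65% of all genes tested. Values were lower in KI within each title prefix too. In a model with genotype, prefix and their interaction, all 22 log2 fold changes were below 0 in EAS37 (median -0.88) and in EAS42 (median -0.52). The value was more negative in EAS37 for 19 of the 22. No member's difference between prefixes passed edgeR's test of the interaction, where 0.866% of all genes were called. Flt1 and Flt4 had unadjusted interaction p-values of 0.0417 and 0.0298, with Flt4 at -0.66 in EAS37 and 0.29 in EAS42 (edgeR adjusted p = 0.227). Analysed alone, EAS37 gave 16 members lower (13.4% of all genes) and EAS42 gave 8 (7.26% of all genes).

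**Figure D3:**
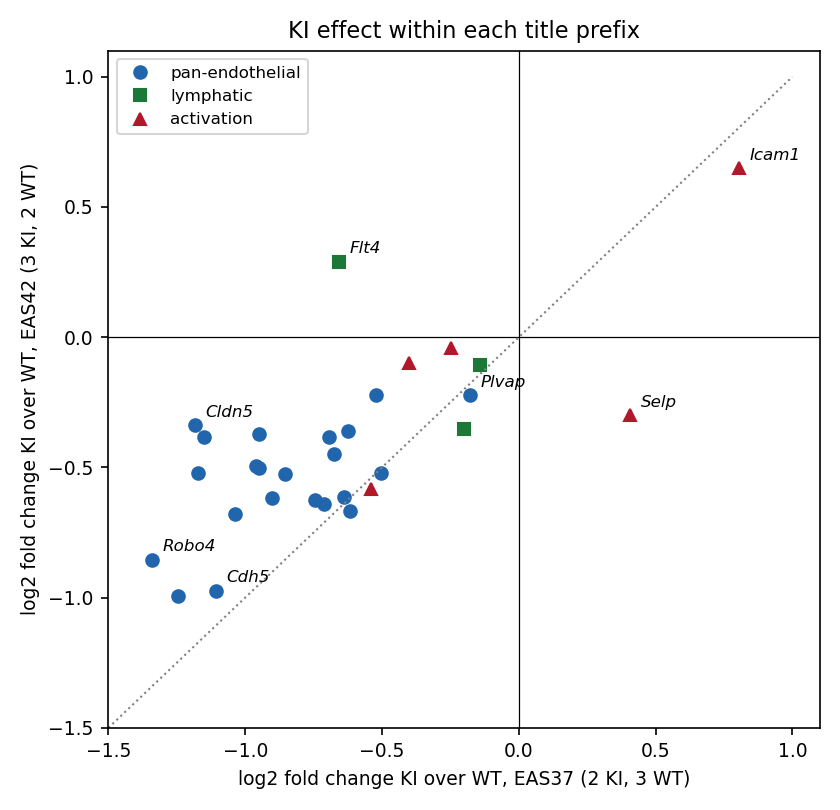
Log2 fold change of KI over WT within EAS37 (x axis, 2 KI and 3 WT libraries) and within EAS42 (y axis, 3 KI and 2 WT libraries) for the 30 genes, with the dotted line marking equal values. All 22 pan-endothelial points lie in the lower left quadrant, Icam1 lies in the upper right, and Flt4 and Selp change sign.

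Further genes of the vascular system were examined in lists, where 15.3% of all genes tested fell and 15.6% rose. Of 25 other endothelial genes, 15 fell and none rose, with a median log2 fold change of -0.62. Gpihbp1, which anchors lipoprotein lipase to capillaries, averaged 7.89 ± 1.90 CPM in KI and 21.0 ± 3.08 CPM in WT (SD, n = 5 each). S1pr1 (a sphingosine-1-phosphate receptor), Ramp2 (a partner of the adrenomedullin receptor) and Cd93 (an adhesion receptor) fell by 0.86, 0.90 and 1.02 on the log2 scale.

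In the arterial and Notch list 5 of 13 fell and 2 rose, against 15.3% of all genes tested that fell and 15.6% that rose. Hey1, a Notch target, averaged 5.22 ± 1.38 CPM in KI and 15.1 ± 2.72 CPM in WT (SD, n = 5 each), a log2 fold change of -1.53 ± 0.20 (SE). The Notch ligand gene Jag2, also expressed in the epidermis, fell by 0.44 ± 0.08 and the arterial connexin gene Gja5 by 0.84 ± 0.18 (SE) on the log2 scale. The others that fell, Notch4 and Dll4, had log2 fold changes of -1.0 and -1.19. Sox7, described above, and Jag1, a Notch ligand also expressed in the epidermis and hair follicle, were the genes that rose. Of 3 venous genes, 2 fell, among them Aplnr (the apelin receptor) with a log2 fold change of -1.19 ± 0.23 (SE). Of 4 tip cell genes tested 0 passed with edgeR, DESeq2 or limma-voom, and 0 had an unadjusted p under 0.05.

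Ligands of these receptors were listed as well, where 15.3% of all genes tested fell. Of 5 VEGF family ligands only Vegfd fell (log2 fold change -0.61 ± 0.18 SE), and Vegfa averaged 70.4 ± 16.8 CPM in KI and 65.1 ± 8.15 CPM in WT (SD, n = 5 each) without passing. Of 3 angiopoietins only Angpt1, the activating ligand of TIE2, fell (log2 fold change -1.06 ± 0.23 SE). Both neuropilin co-receptors, Nrp1 and Nrp2, fell, with log2 fold changes of -0.68 ± 0.12 and -0.51 ± 0.11 (SE).

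Genes that induce or accompany ICAM-1 were listed too. Of 6 inducers and their receptors tested, Tnf, Il1a and Il1b rose. Il1b averaged 1.84 ± 0.579 CPM in KI and 0.359 ± 0.274 CPM in WT (SD, n = 5 each), and Tnf averaged 2.66 ± 0.657 CPM in KI and 0.929 ± 0.509 CPM in WT. Of 10 other NF-kappa-B target genes 4 rose, 1 fell and 5 did not pass, where 15.6% of all genes tested rose. Among those that rose were Birc3 (log2 fold change 0.41 ± 0.10 SE), the chemokine gene Cxcl1 (3.03 ± 0.71 SE) and Nfkb2 (0.48 ± 0.13 SE). The target that fell was Nfkbia, the inhibitor of NF-kappa-B, with a log2 fold change of -0.52 ± 0.13 (SE). Whether NF-kappa-B took part in the rise of Icam1 was not tested. Of 6 leukocyte ligands tested, Itgal (a subunit of the ICAM-1 receptor LFA-1) and Selplg (the selectin ligand PSGL-1) rose by 1.11 ± 0.19 and 0.96 ± 0.26 (SE) on the log2 scale.

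Markers of other cell types moved with genotype beside the endothelial genes, where 15.3% of all genes tested fell and 15.6% rose. For mural cells, the pericytes and smooth muscle of vessel walls, 7 of 11 genes fell. The summed level of the 11 was 487 to 647 CPM in KI and 817 to 918 CPM in WT. The mural gene Pdgfrb did not pass, and its log2 fold change was -0.84 in EAS37 and 0.67 in EAS42 (edgeR adjusted p of the interaction 0.0182). For fibroblasts 3 of 8 fell (4180 to 8395 CPM in KI, 7968 to 17009 CPM in WT), for adipocytes 4 of 8 (233 to 383 CPM in KI, 350 to 615 CPM in WT) and for Schwann cells 6 of 6 (247 to 632 CPM in KI, 822 to 2282 CPM in WT). Of 10 skeletal muscle genes 0 passed edgeR's test, against 7 with DESeq2 and 7 with limma-voom, and 8 had an unadjusted p under 0.05 in edgeR. Their median log2 fold change was -1.31, and their summed level was 2402 to 25291 CPM in KI and 23825 to 41820 CPM in WT. Of 6 general leukocyte genes 5 rose (135 to 190 CPM in KI, 59.1 to 103 CPM in WT). Of 6 basal keratinocyte genes 2 fell and 1 rose. None of these lists had a gene at 0 in all libraries, and the part of these cell types in the endothelial values or in Icam1 was not tested.

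**Figure D4:**
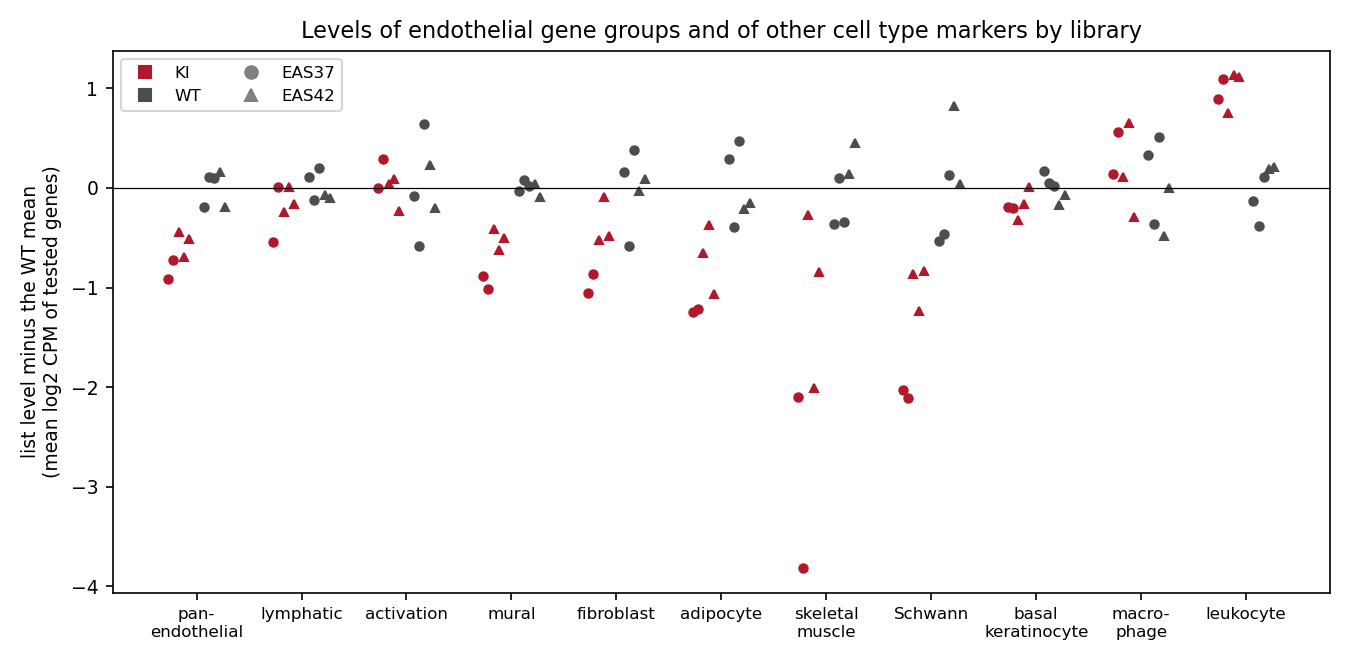
Level of each gene list in each library (mean log2 CPM of its tested genes, y axis, relative to the WT mean) for the endothelial groups and 8 lists of other cell type markers (x axis), KI left of WT, with the title prefix as the point shape. Pan-endothelial, mural and Schwann levels separate with KI below WT and leukocyte levels with KI above WT, while lymphatic, activation, basal keratinocyte and macrophage levels overlap.

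List levels (mean log2 CPM) of skeletal muscle overlapped between groups, at 7.32 to 10.87 in KI and 10.78 to 11.59 in WT. So did those of fibroblasts, at 7.72 to 8.68 in KI and 8.19 to 9.15 in WT. Those of adipocytes did as well, at 4.18 to 5.05 in KI and 5.03 to 5.89 in WT. For muscle only KI 3 reached the WT range, and for adipocytes only KI 4, so both levels nearly followed genotype. Among KI libraries, KI 3 and KI 5 had the highest muscle levels (10.87 and 10.29) and the highest pan-endothelial levels (4.19 and 4.12). KI 3 and KI 5 also had the highest mural (5.45 and 5.36) and Schwann cell levels (6.05 and 6.08). KI 4 had the highest fibroblast (8.68) and adipocyte levels (5.05), with a pan-endothelial level of 3.93. KI 1 had the lowest pan-endothelial level (3.71, with a muscle level of 9.04), and KI 2 the lowest muscle level (7.32, with a pan-endothelial level of 3.90).

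When the skeletal muscle level entered the model as a covariate, 2 members fell, Cdh5 (log2 fold change -0.89, edgeR adjusted p = 0.0389) and Mmrn2 (-0.75, edgeR adjusted p = 0.0462), where 0.82% of all genes did. With the adipocyte level only Esam fell (-0.80, edgeR adjusted p = 0.0431), where 0.369% of all genes did, and with the fibroblast level 8 members fell, where 3.07% of all genes did. The median of the 22 pan-endothelial log2 fold changes was -0.51, -0.67 and -0.68 under these 3 covariates. Since the muscle and adipocyte levels nearly followed genotype, these fits can hardly separate level from genotype. Fewer calls under them therefore do not show what these cells contribute. Icam1 rose with the muscle and fibroblast covariates (log2 fold changes 0.68 and 0.73). With the adipocyte covariate its log2 fold change was 0.78 and did not pass (edgeR adjusted p = 0.0678).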

How the data were processed

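Total skin RNA (250 ng, trizol) was turned into stranded mRNA libraries, per the labels' protocols. GRCm38, DESeq2 1.14.1, STAR 2.5.2b, Picard 2.8.1, FastQC and featureCounts appear in the submitters' processing notes without role or order. The authors deposited expected counts (estimated reads per gene), TPM and FPKM values and gene lengths, per the file headers, which have the columns of an RSEM gene table. The annotation release is not given in the sources used here.

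Expected counts were rounded (10.4% to 12.2% of values per library were fractional). Genes were named from GENCODE M21 (55227 of 55487 identifiers). Genes were kept by filterByExpr (minimum count 10, minimum total 15), which removed 0.127% of counts, and tested with edgeR 4.0.16 (R 4.3.3; TMM, robust quasi-likelihood fit, Benjamini-Hochberg adjustment over 17321 genes, threshold 0.05). CPM values use TMM library sizes, and levels of lists use a prior count of 2. Deposited TPM values served for levels between genes. Deposited lengths were tested with limma 3.58.1. The lowest chi-square per gene between libraries of a group was 29.5. Fits were tested on simulated data. Replicate numbers follow accession order and pair nothing.

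Members and lists were chosen with earlier results of these data known. Values in every library are given for Pecam1, Cdh5, Kdr and Eng, the 6 other pan-endothelial genes with the largest fold changes among those past the threshold, those not past it, and all lymphatic and activation genes. From other lists up to 4 genes with the smallest p are named. Notch4, Dll4, Jag1, Vegfa, Klf2, Lmo2, Fli1, Ets1, Tal1, Gata2, Klf4 and Pdgfrb fall outside this rule and were named after their values were seen. Alternatives were other normalizations, filters and tests (DESeq2 1.42.0, limma-voom, limma on log2(TPM + 0.1)), length offsets, title prefix as a block or each prefix alone, marker levels as covariates and leaving out each library.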

Additional observations from a re-analysis of the deposited data

Results flagged for a closer look

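Each of 60 groups of 5 libraries (30 genes, KI and WT) was examined for a library far from the others, and 2 stood out, where chance gives about 1 group in 20. Ecscr measured 12.6 CPM in WT 4, against 7.37 to 8.80 CPM in the other WT libraries. Vcam1 measured 6.70 CPM in WT 5, against 4.28 to 4.90 CPM in the other WT libraries. Neither gene passed the test of KI against WT. Ecscr had an edgeR adjusted p of 0.214 without WT 4, and Vcam1 had one of 0.127 without WT 5.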

How the results depend on the processing

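The count of members lower, 18 of 30, was 2 with the skeletal muscle level, 1 with the adipocyte level and 8 with the fibroblast level as a covariate, and 8 in EAS42 alone. Of all genes, 442, 252 and 1276 were called with these 3 covariates, against 5351 without. The muscle and adipocyte levels nearly followed genotype, which limits what these fits can separate. The count was 21 with the title prefix as a block, which added Cldn5, Ecscr and Vcam1 and called 6627 of all genes. It was 14 to 19 when 1 library was left out. The count of members higher was 1, also when 1 library was left out, and 0 with the adipocyte level, where Icam1 was at 0.78. With the pan-endothelial level as a covariate, run for lymphatic and activation genes, Icam1 was at 0.72 with an edgeR adjusted p of 0.718. That fit called only 3 of 17321 genes, and its covariate did not overlap between genotypes, so the lost call of Icam1 says little. In 23 alternatives without a covariate, Cdh5, Esam, Egfl7, Ptprb, Robo4, Aqp1, Mmrn2 and, in the other direction, Icam1 kept their calls. When 1 library was left out, Emcn, Flt1, Sox17, Sox18 and Nos3 lost theirs at least once (Nos3 without KI 4, at 0.0511). Vcam1 and Cldn5 were called lower by DESeq2 and limma-voom. All 22 pan-endothelial fold changes stayed below 0 in 25 of the 26 alternatives that do not use their own level as a covariate, the exception being Vwf at 0.059 with effective length offsets. With the pan-endothelial level as a covariate, which is built from these 22 genes, their median was 0.013.

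Among lymphatic and activation genes, those that changed sign passed no test. With the adipocyte level Lyve1 was at 0.058, Prox1 at 0.070, Flt4 at 0.081, Sele at 1.25 and Ackr1 at 0.063. With the fibroblast level Prox1 was at 0.13, Flt4 at 0.034, Sele at 0.96 and Ackr1 at 0.067. With the muscle level Flt4 was at 0.045 and Selp at -0.60. With the pan-endothelial level, whose values do not overlap between genotypes, Prox1 was at 0.50, Flt4 at 0.87, Sele at 0.39 and Ackr1 at 0.19. In EAS42 alone Flt4 was at 0.28 and Selp at -0.31. With limma-voom Sele was at 0.091. When 1 library was left out, Prox1 ranged from -0.15 to 0.012 and Flt4 from -0.24 to 0.039, both above 0 without KI 1, Sele from -0.55 to 0.47, above 0 without WT 3, and Selp from -0.17 to 0.23, below 0 without KI 1, KI 2, WT 1, WT 2 or WT 5. The cause was not tested. The counts of members with a prefix difference or a length difference were 0 under the alternatives run for them. The depth of Sele, Selp, Prox1 and Flt4 limits what could be seen, and Sele did not pass a minimum count of 50.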
